A study of Mus musculus with 16 samples.

Results

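CD150 and CD48 are 2 of the 20 surface proteins that were counted with antibody tags on single mouse bone marrow cells in which DNA methylation was read at the same time. Both belong to the SLAM family of immunoglobulin-like receptors. The members were taken by name from the tag tables of the 4 bone marrow libraries that hold both tags. All cells with at least 100 tag molecules were used, and the amplicons described are those whose methylation calls went with one protein and against the other. CD150 is encoded by Slamf1 and acts as its own ligand on lymphocytes and myeloid cells. CD48 is a lipid-anchored protein that binds CD244 on other leukocytes. In mouse bone marrow, presence of CD150 together with absence of CD48 is a classical way to enrich hematopoietic stem cells among Sca-1+ c-Kit+ cells, while CD48 is displayed by most of the progenitors below them. In GRCm38, the assembly behind mm10, Cd48 lies on chromosome 1 from 171681245 to 171705258 and Slamf1 on the same chromosome from 171767131 to 171801184, with 61.9 kb between the genes.

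Methylation was measured with scTAM-seq, in which an enzyme cuts unmethylated sites before a fixed panel of 663 amplicons is amplified from each cell, so that reads in an amplicon mark a methylated copy. The series held 16 libraries with 95930 cells. The 4 libraries used were the bone marrow of mouse 3 and of mouse 4 of the main LARRY experiment, the bone marrow of mouse 1 of the replicate LARRY experiment, and 1 library of native hematopoiesis. In LARRY experiments cells carry lentiviral barcodes that mark clones, and the native library is without them. The labels give the tissue as bone marrow and the cells as immune cells, and give no strain, sex, age, transplantation step or sort for these libraries. The cells with enough tag molecules numbered 2675 of 5478 in main mouse 3, 1342 of 3385 in main mouse 4, 3103 of 4687 in replicate mouse 1 and 2595 of 7891 in the native library. Their median tag totals were 215, 212, 301 and 186 unique molecular identifiers (UMIs) in the same order. The libraries shared 5 to 24 cell barcodes in pairs. The native library had tags for CD150, CD48, Sca-1 and c-Kit only, the LARRY libraries for 19 or 20 proteins. No tag for CD244, CD229 or CD84, other members of the SLAM family, was among them. c-Kit, the stem cell factor receptor of stem and progenitor cells, was detected in 98.4 to 99.6% of these cells.

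CD48 was abundant and CD150 scarce. The median count of CD48 was 40 UMIs per cell in main mouse 3, 38 in main mouse 4, 66 in replicate mouse 1 and 145 in the native library. The middle 90% of cells ran from 8 to 166 UMIs in main mouse 3 and from 76 to 479.3 in the native library. Nearly every cell that was kept carried CD48 counts. In the native library CD48 made up most of the tag total, so the minimum of 100 tag UMIs itself favoured cells with many CD48 counts. That minimum kept 32.9% of native cells, where the median tag total over all cells was 54 UMIs. CD150 had medians of 1, 2, 2 and 3 UMIs in the same 4 libraries. It was at 0 in 33.8%, 21.6%, 26.8% and 8.21% of cells, and its 95th percentile was 21, 17.95, 65 and 155 UMIs. The distribution of CD150 thus had a long upper tail over a low bulk. Thinned to 100 UMIs per cell, CD150 was detected in 47.2%, 58.6%, 52.5% and 78.6% of cells. Ter-119, a protein of erythroid cells, had medians of 1, 2 and 1 UMIs in the LARRY libraries and FceRIa, the high-affinity IgE receptor of mast cells and basophils, 1, 1 and 0. The bulk of CD150 counts therefore lay at the level of tags of other lineages. Of all tag UMIs, CD48 made up a mean of 19.6%, 19.0%, 24.99% and 77.5% and CD150 a mean of 0.991%, 1.24%, 1.85% and 5.76%.

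**Figure D1:**
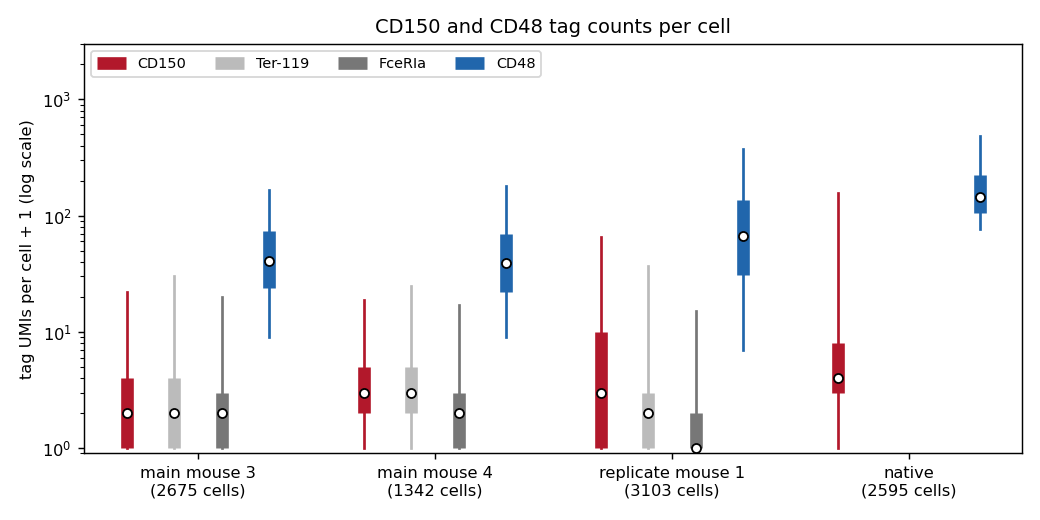
Tag UMIs per cell plus 1 on a log axis for CD150 and CD48 in the 4 libraries, with Ter-119 and FceRIa (LARRY libraries only) beside them. Thick bars span the quartiles, thin lines the 5th to 95th percentile, and circles mark medians. CD150 medians of 1 to 3 UMIs sit beside those of Ter-119 and FceRIa, and CD48 medians of 38 to 145 UMIs sit above them.

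Across cells CD150 and CD48 were opposed. Given the reads and the tag total of a cell, the partial Spearman rho between them was -0.255 in main mouse 3, -0.224 in main mouse 4, -0.380 in replicate mouse 1 and -0.264 in the native library, with a mean of -0.281. Size and sign changed with the treatment of the tag total, of which CD48 is itself a part. With the UMIs of the other tags as covariate in place of the total, rho was -0.141, -0.0991, -0.250 and 0.104 in the same order, with a mean of -0.0964. With no covariate for tag depth rho was 0.120, 0.164, 0.000481 and 0.236 in the same order, with a mean of 0.130. These are descriptions over the cells of each library, without a test.

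Other tags sorted around the pair. The membership rule used their counts only through the tag total. That total is also a covariate here, so the pattern is not independent of that rule. Among tags measured in at least 3 libraries, the most like CD150 across cells were ESAM, which sits at cell junctions of endothelium and also on stem cells, with a mean partial rho of 0.377, then CD41, an integrin chain of megakaryocytes, with 0.368, and CD127, the interleukin 7 receptor chain, with 0.272. CD201, the endothelial protein C receptor carried by stem cells, followed at 0.271. CD16/32, the low-affinity Fc receptors of myeloid cells, was measured in the main mice only and had a mean of 0.339. Besides CD48, the lowest were CD27, a costimulatory receptor of lymphocytes and progenitors, with -0.236, and CD49f, an integrin chain, with -0.126. CD49f was positive in replicate mouse 1 (0.0563). For CD48 the order was turned round only in part. CD127, among the tags most like CD150, had a mean of -0.0898 with CD48. ESAM had the lowest rho with CD48, -0.398, followed by CD9, a tetraspanin of megakaryocytes, with -0.365 and CD61, an integrin chain of megakaryocytes, with -0.286. c-Kit and CD27 were the highest with 0.119 and 0.0805, followed by CD49f with -0.00589. Sca-1, measured in all 4 libraries, ran from 0.134 to 0.232 with CD150 and from -0.415 to -0.146 with CD48. Ter-119 and FceRIa, at 0.259 and 0.237 with CD150, lay between CD201 (0.271) and Sca-1 (0.185) in their mean rho. Their part in the likeness of the low-count tags was not tested.

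**Figure D2:**
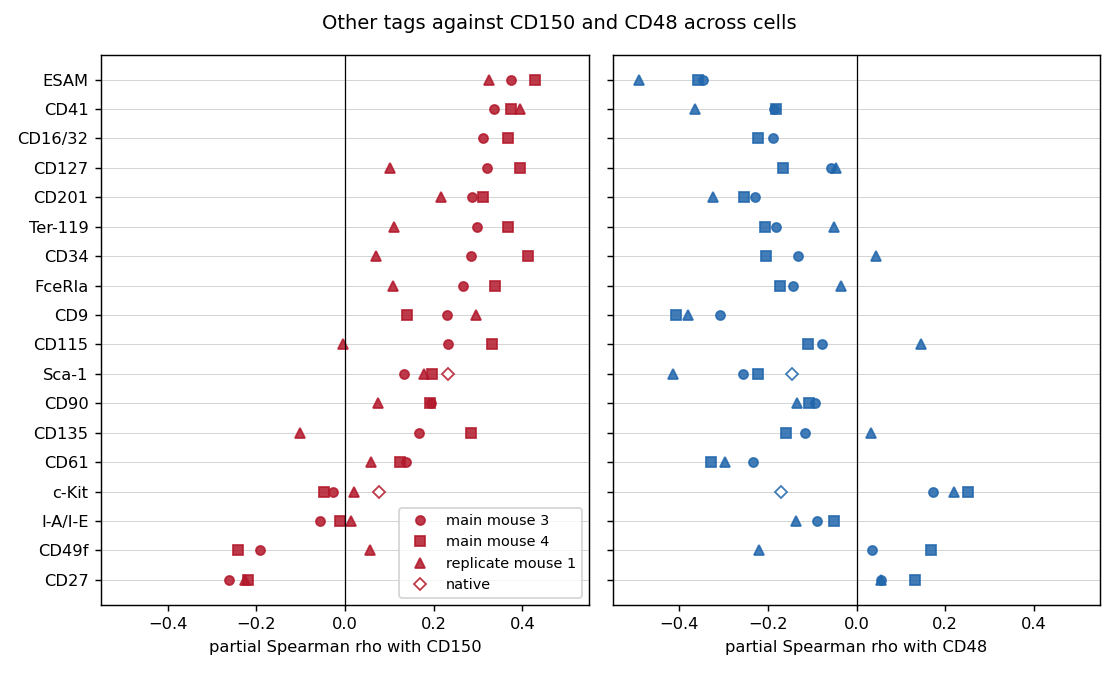
Partial Spearman rho of each other tag with CD150 (left) and CD48 (right) across cells, given reads and tag total, 1 symbol per library and tags ordered by their mean with CD150. ESAM has the highest mean with CD150 (0.377) and the lowest with CD48 (-0.398). The native library, drawn open, has Sca-1 and c-Kit only.

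To place the pair on the scale of cells, each library was divided by residual rank into 3 equal parts for each protein, and cells in the top part of one and the bottom part of the other were set against each other. Such classes are ranges of counts and not cell types. The CD150-high CD48-low class held 415, 193, 533 and 412 cells in main mouse 3, main mouse 4, replicate mouse 1 and the native library, and the CD150-low CD48-high class held 357, 198, 485 and 378. Median CD150 was 5, 5, 13 and 11 UMIs in CD150-high CD48-low cells and 0, 0, 0 and 1 UMIs in CD150-low CD48-high cells. Median CD48 was 18, 16, 19 and 93 UMIs in CD150-high CD48-low cells, against 74, 68.5, 159 and 214.5 UMIs in CD150-low CD48-high cells. CD48 was thus still counted in most cells of the low class of the native library. A share near 50% has an exact 95% binomial half-width of 7.27 points at the fewest cells of these classes and 4.33 at the most. Such intervals cover counting error over the cells of a library only, and not the spread between libraries. The amplicon counts are of reads and not of molecules. The constitutive amplicons, with reads in 90% of cells or more in each library, were detected at 96.8%, 96.6%, 98.6% and 99.1% in CD150-high CD48-low cells and at 97.5%, 97.4%, 99.1% and 99.2% in CD150-low CD48-high cells, a difference below 1 percentage point in each library.

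Other tags were compared between these classes as a description without a test. ESAM made up a mean of 4.93%, 5.86% and 4.39% of the UMIs other than CD150 and CD48 in CD150-high CD48-low cells of main mouse 3, main mouse 4 and replicate mouse 1, against 0.990%, 1.43% and 0.915% in CD150-low CD48-high cells. The ratio of these shares was 4.11 to 4.98 for ESAM, 4.02 to 5.05 for CD201, 2.63 to 4.33 for CD34, 2.14 to 2.81 for CD41, 2.07 to 2.38 for CD9, 1.59 to 2.41 for CD127 and 1.18 to 1.74 for CD61. CD34 is a sialomucin of progenitor cells. Sca-1, carried by stem and early progenitor cells, had ratios of 1.32, 1.68, 2.92 and 1.77. Libraries fell on both sides of 1 for CD90, a protein of T cells and of some stem cells (0.822 in replicate mouse 1, up to 1.18 in the main mice), for CD115, the receptor of macrophage colony-stimulating factor (0.403 to 1.38), for CD135, the Flt3 receptor (0.991 to 2.56) and for CD49f (0.473 to 1.07). The ratio was below 1 in every library for CD27 (0.273 to 0.410), for I-A/I-E, which presents antigen as MHC class II (0.614 to 0.692) and for c-Kit (0.481 to 0.924). FceRIa and Ter-119 also had ratios well above 1, from 3.85 to 4.54 and from 2.73 to 4.23, with median counts of 1 to 4 UMIs in CD150-high CD48-low cells and 0 to 1 UMI in CD150-low CD48-high cells. CD16/32, in the main mice only, had ratios of 4.61 and 5.08.

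Methylation calls followed the pair at many amplicons. Of 593 amplicons tested, 108 were called positively with CD150 (18.2% of those tested) and 58 negatively (9.78%), by limma on the partial correlations of the 4 libraries with adjustment over all 11267 amplicon and tag pairs. For CD48, limma called 69 positively (11.6%) and 88 negatively (14.8%). The balance of directions moved with the treatment of tag depth. CD150 had 155 positive and 48 negative calls with no covariate for tag depth and 63 and 59 with centred log ratios. CD48 had 124 and 27 with no covariate, 48 and 106 with centred log ratios and 93 and 73 with the UMIs of the other tags as covariate. The correlations were moderate at most. The mean over libraries ran from -0.293 to 0.242 for CD150 and from -0.271 to 0.231 for CD48, and 95 amplicons reached an absolute value of 0.1 for CD150 and 105 for CD48.

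The members were opposed at each amplicon they shared. Called for both proteins were 115 amplicons, and at every one of these the directions were opposite. Of them, 75 followed CD150 and opposed CD48 (12.6% of amplicons tested) and 40 followed CD48 and opposed CD150 (6.75%). With no covariate for tag depth the counts were 26 and 41, and with no minimum of tag UMIs they were 54 and 26. A further 51 amplicons were called for CD150 alone and 42 for CD48 alone. Since both tags were counted in the same cells and share the tag total, their correlations with an amplicon are not independent. Across amplicons, the correlation with CD150 and that with CD48 had a Pearson r of -0.757, -0.625, -0.853 and -0.916 in main mouse 3, main mouse 4, replicate mouse 1 and the native library, over 593 amplicons in the LARRY libraries and 592 in the native one. With each protein given the other, an alternative chosen after seeing the data, 58 amplicons followed CD150 and opposed CD48, all of them among the 75. There 22 amplicons followed CD48 and opposed CD150, all among the 40. With the ranks of Ter-119 and FceRIa as covariates and without the native library, also chosen after seeing the data, the counts were 51, of which 47 were among the 75, and 18, of which 17 were among the 40.

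**Figure D3:**
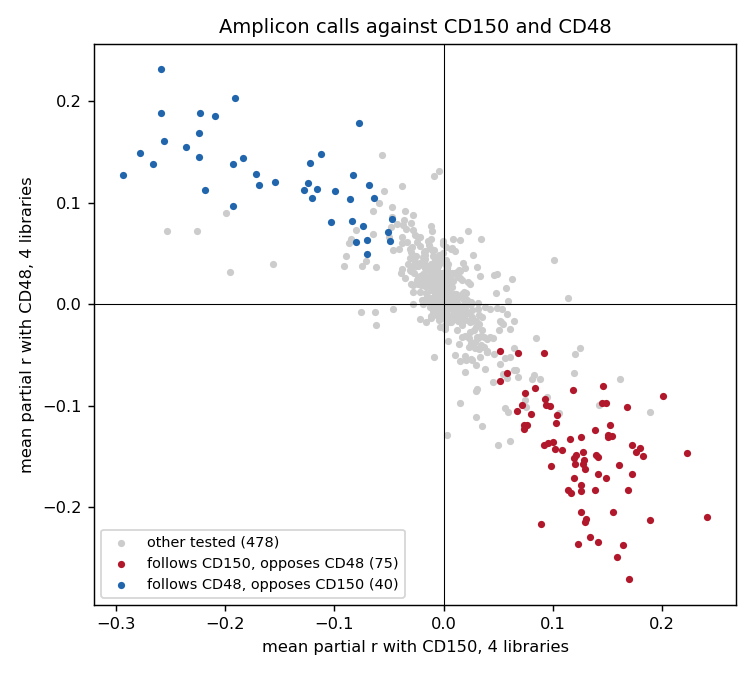
Mean partial correlation of each of 593 amplicons with CD150 (x axis) and with CD48 (y axis) over the 4 libraries, given reads and tag total. Red points are the 75 amplicons that follow CD150 and oppose CD48, blue points the 40 that follow CD48 and oppose CD150, and grey points the rest. No amplicon called for both lies in the quadrants where both signs are equal.

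The median correlation of the 75 amplicons was 0.126 with CD150 and -0.144 with CD48, and that of the 40 was -0.126 and 0.120, while over all amplicons tested the medians were 0.00361 and 0.00510. These values chose the sets and are given as a description. The signs were the same in all 4 libraries for 72 of the 75 and for 40 of the 40. Signs opposed in this way in all 4 libraries were found at 15.2% and 12.3% of all amplicons tested. At the edge of the call, AMPL371230 was the last amplicon called for CD150 (mean r 0.0582, limma adjusted p = 0.0477) and AMPL365733 the first not called (0.0586, limma adjusted p = 0.0515). For CD48 the last called was AMPL388402 (0.0730, limma adjusted p = 0.0497) and the first not called AMPL377538 (-0.0585, limma adjusted p = 0.0516). Intermediate amplicons, with a mean share of 25 to 90% over the 12 bone marrow libraries, were 34 of the 75, 37 of the 40 and 403 of the 593 tested.

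In the set that followed CD150, AMPL371668 had the largest difference between the proteins. Its partial correlation with CD150 was 0.195 in main mouse 3, 0.189 in main mouse 4, 0.337 in replicate mouse 1 and 0.245 in the native library. With CD48 it was -0.139, -0.138, -0.369 and -0.192. The amplicon was read in 50.6%, 45.6%, 73.9% and 37.1% of CD150-high CD48-low cells, against 22.7%, 16.7%, 15.5% and 7.41% of CD150-low CD48-high cells. The classes did not overlap over the libraries at this amplicon, which was chosen for its opposed correlations in the same cells. AMPL355412 had the lowest correlation with CD48, with -0.285, -0.228, -0.431 and -0.140, and it was read in 44.6%, 36.8%, 60.6% and 19.2% of CD150-high CD48-low cells, against 9.80%, 13.6%, 11.5% and 3.70% of CD150-low CD48-high cells. AMPL388203 was read in 24.1%, 23.8%, 42.0% and 17.5% of CD150-high CD48-low cells and in 4.20%, 2.02%, 4.12% and 3.17% of CD150-low CD48-high cells. AMPL371197 averaged 48.3% ± 21.6 in CD150-high CD48-low cells and 17.0% ± 7.08 in CD150-low CD48-high cells, and AMPL366060 averaged 60.7% ± 20.2 and 26.8% ± 8.44 in the same classes (SD, n = 4 libraries). The classes did overlap over the libraries at AMPL371197 and AMPL366060. At AMPL371197, CD150-high CD48-low cells of the native library had 23.3% and CD150-low CD48-high cells of main mouse 4 had 24.7%. At AMPL366060, CD150-high CD48-low cells of the native library had 34.2% and CD150-low CD48-high cells of replicate mouse 1 had 36.1%. Replicate mouse 1 had the highest share of CD150-high CD48-low cells at all 5 amplicons, and the native library the lowest.

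In the set that followed CD48, AMPL388788 had the largest difference and the highest correlation with CD48. That correlation was 0.174, 0.155, 0.310 and 0.286 in main mouse 3, main mouse 4, replicate mouse 1 and the native library, while with CD150 it was -0.190, -0.158, -0.383 and -0.303. It was read in 45.1%, 52.3%, 27.8% and 55.8% of CD150-high CD48-low cells, against 74.5%, 72.2%, 79.6% and 92.9% of CD150-low CD48-high cells. AMPL355546 had the lowest correlation with CD150, a mean of -0.293, and a mean of 0.128 with CD48, of which the native library had 0.298 and the LARRY libraries 0.0409 to 0.103. It was read in 66.3%, 76.7%, 63.4% and 60.2% of CD150-high CD48-low cells and in 90.2%, 91.4%, 92.6% and 96.8% of CD150-low CD48-high cells. AMPL366159 averaged 67.9% ± 9.14 in CD150-high CD48-low cells and 94.4% ± 1.86 in CD150-low CD48-high cells, AMPL366009 44.0% ± 10.6 and 77.4% ± 1.40, and AMPL371265 62.1% ± 8.30 and 89.1% ± 5.11 (SD, n = 4 libraries). These 10 amplicons were chosen for opposed correlations in the same cells, so that the order of the classes follows in large part from the choice. At each of the 5 that followed CD48 the highest library of the CD150-high CD48-low class lay below the lowest library of the CD150-low CD48-high class. Such separation was not counted over all amplicons tested.

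Ranking by the correlation with either protein alone gave 5 more amplicons, all of them members of the opposed sets. AMPL365938 and AMPL366000 followed CD150 with mean r of 0.223 and 0.201, and AMPL371589 opposed it with -0.266. AMPL371420 and AMPL365894 followed CD48 with 0.203 and 0.189. AMPL366000 was read in 66.4% ± 9.43 of CD150-high CD48-low cells and 39.9% ± 4.26 of CD150-low CD48-high cells (SD, n = 4 libraries). Its share in cells high for both proteins was 63.6%, 60.6%, 69.6% and 45.2%, close to the CD150-high CD48-low class in the main mice.

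**Figure D4:**
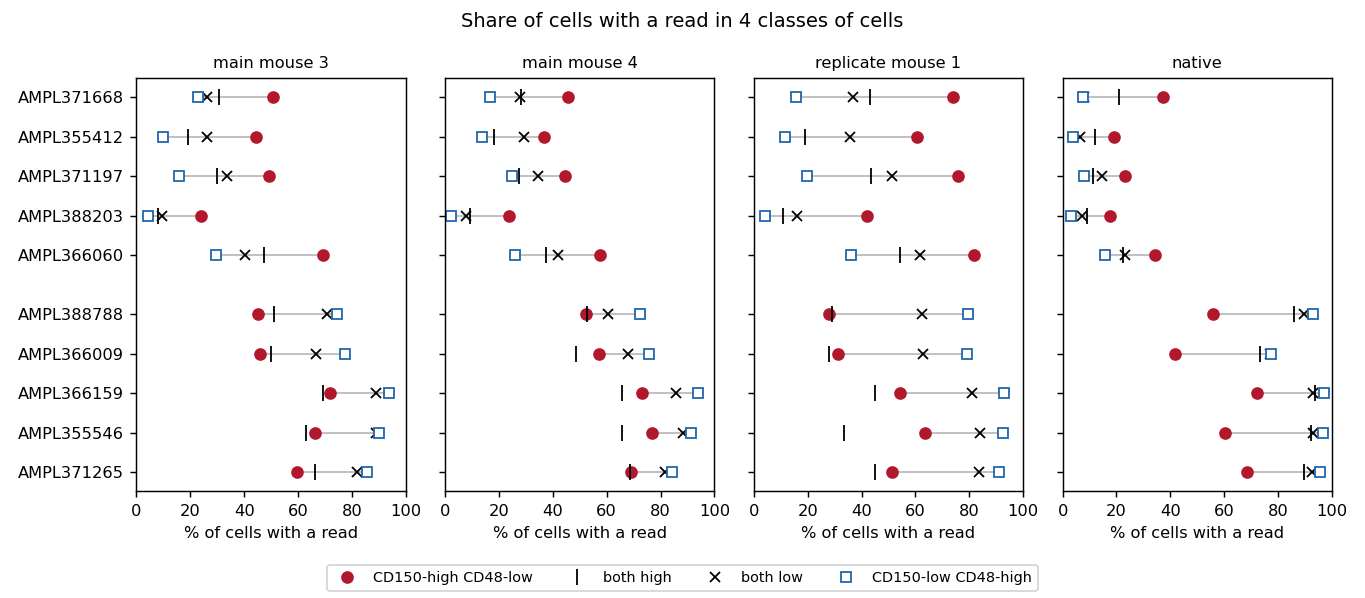
Share of cells with a read at the 10 amplicons with the largest opposed correlations, 1 panel per library. Red circles are CD150-high CD48-low cells, open blue squares CD150-low CD48-high cells, black bars cells high for both and crosses cells low for both. Circles lie right of squares at the upper 5 amplicons and left of them at the lower 5 in all 4 libraries.

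The difference between the proteins was tested in the same cells, with the same calls and tag ranks that chose the sets, so the overlaps below are no independent support. The correlation with CD150 exceeded that with CD48 at 73 amplicons (12.3% of those tested) and lay below it at 56 (9.44%), by limma on the difference of Fisher z values, and 63 of the 75 and 39 of the 40 were among them. Without main mouse 3 or without main mouse 4, limma called 0 amplicons, with 151 and 162 at an unadjusted p below 0.05. It called 0 also with the Ter-119 and FceRIa covariates without the native library (186 at an unadjusted p below 0.05), and 18 with no minimum of tag UMIs. On shares of cells, 69 amplicons were read in more CD150-high CD48-low than CD150-low CD48-high cells (11.6%) and 55 in fewer (9.27%) by limma on log odds. Of these, 63 were among the 75 and 36 among the 40. Without main mouse 3 that count was 64 in place of 124, and without main mouse 4 it was 78. The quasi-likelihood test of edgeR, run on cell numbers, called 78 in more and 59 in fewer. As a description of amplicons already chosen for opposed correlations, the log odds difference was 1.85 with a standard error of 0.259 at AMPL371668, 2.30 with 0.205 at AMPL388203 and -2.09 with 0.187 at AMPL366159, each in 1 direction in 4 of 4 libraries.

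The counts of calls fell most when 1 of the main mice was left out, and the cause was not tested. Without main mouse 3, 10 amplicons followed CD150 and opposed CD48 and 11 did the reverse, without main mouse 4 there were 18 and 18, without replicate mouse 1 there were 64 and 35, and without the native library 81 and 32. Leaving out any 1 LARRY library left only 4 tags measured in 3 libraries. With amplicons ranked on 3 libraries alone, the library left out gave the same direction of the difference for 20 of the 20 highest and 20 of the 20 lowest amplicons when it was main mouse 3, main mouse 4 or replicate mouse 1, and for 19 and 20 when it was the native library. Over all amplicons, 42.0 to 54.3% had a positive difference in the library left out. The median difference of the 20 highest was 0.348, 0.280, 0.582 and 0.189 on the Fisher z scale with main mouse 3, main mouse 4, replicate mouse 1 and the native library left out, and that of the 20 lowest was -0.296, -0.226, -0.548 and -0.476.

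Cells high for both proteins stood differently in the 2 sets in the LARRY libraries. The medians of cells low for both lay between the opposed classes in both sets. For the 75 amplicons that followed CD150, the median share of cells with a read was 35.2%, 35.8%, 53.1% and 26.2% in CD150-high CD48-low cells of main mouse 3, main mouse 4, replicate mouse 1 and the native library. It was 21.7%, 20.2%, 25.9% and 17.8% in cells high for both, 21.8%, 23.5%, 25.9% and 14.6% in cells low for both, and 16.5%, 16.2%, 15.9% and 12.4% in CD150-low CD48-high cells. The medians of both mixed classes thus lay between the opposed ones in every library. Of the 75 amplicons themselves, 51 did so in the native library for cells high for both and 39 for cells low for both. In the LARRY libraries 58 to 71 did so. For the 40 amplicons that followed CD48, the median was 56.6%, 58.3%, 49.0% and 61.4% in CD150-high CD48-low cells, 56.1%, 58.1%, 46.5% and 83.1% in cells high for both, 67.3%, 62.2%, 66.5% and 84.3% in cells low for both, and 74.8%, 73.2%, 79.2% and 86.1% in CD150-low CD48-high cells. In the LARRY libraries, cells high for both lay beside the CD150-high CD48-low cells for this set, and in the native library beside the CD150-low CD48-high cells. Of the 40 amplicons themselves, 21, 15, 17 and 31 had cells high for both between the opposed classes, in the same order of libraries. For cells low for both, 35, 33, 36 and 37 did so. The median of all amplicons tested lay between 65.2 and 79.6% in every class and library.

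Calls with the other tags were counted for both sets. Of the 75, limma called 74 positively with ESAM (21.8% of all tested), 66 with CD201 (17%), 62 with Sca-1 (23.3%), 60 with CD41 (14.7%), 53 with CD90 (14.5%) and 42 with CD127 (18.9%), and 32 negatively with CD27 (9.78%). It also called 35 positively with Ter-119 (11.6%) and 28 with FceRIa (9.78%). With c-Kit, 12 of the 75 were called positively (10.6%) and 17 negatively (18.4%). Of the 40, 37 were called negatively with c-Kit (18.4%), 28 with CD41 (5.9%) and 26 with ESAM (5.56%), and 29 positively with CD61 (24.6%) and 25 with CD27 (18.9%). CD61 was also called positively for 35 of the 75, and CD127 for 13 of the 40. CD115 had 18 positive calls among the 40 and 14 among the 75 (14.2% of all tested). CD135 had 16 and 6 in the same order (8.77%), and I-A/I-E 5 and 27 (13.0%). Sca-1 had 5 positive and 6 negative calls among the 40 (23.3% and 4.38% of all tested), and Ter-119 had 19 negative ones (8.09%). The sets were chosen in the same cells, so these counts are not independent of the correlations between tags.

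Members of a set were chosen for correlations with the same tags in these cells, so correlations within a set follow in part from the choice and are given as a description. The median partial correlation between pairs of the 75 was 0.129, 0.139, 0.170 and 0.0454 in main mouse 3, main mouse 4, replicate mouse 1 and the native library, that between pairs of the 40 was 0.172, 0.189, 0.179 and 0.127, and that over all tested pairs was 0.0289, 0.0402, 0.0180 and 0.0102. Between the sets it was -0.00246, 0.00228, -0.0404 and -0.0275. The mean call of the 75 and that of the 40 had a partial correlation of -0.0419 and -0.00583 in the main mice, and of -0.228 in replicate mouse 1 and -0.362 in the native library. The sets therefore varied nearly apart from each other across the cells of the main mice.

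The mean level of methylation did not pass the test with either protein. The share of intermediate amplicons read in a cell had a partial rho with CD150 of -0.00254, -0.0350, 0.000418 and -0.0443 in main mouse 3, main mouse 4, replicate mouse 1 and the native library, with limma adjusted p = 0.337. With CD48 it was -0.0170, 0.0804, -0.0121 and 0.118, with limma adjusted p = 0.168. Of the 17 other tags tested, limma called 9, with 8 of them positive. These included Sca-1 at a mean of 0.107 (adjusted p = 0.00641), CD61 at 0.167 (adjusted p = 0.000566) and c-Kit at -0.0685 (adjusted p = 0.0210). Direction and call for the pair depended on the settings. With no covariate for tag depth, limma called CD150 at 0.0501 (adjusted p = 0.0427) and CD48 at 0.120 (adjusted p = 0.00951). With centred log ratios it called CD150 at -0.0707 (adjusted p = 0.00484) and not CD48 at -0.0179 (adjusted p = 0.589). Without the 5% of cells with the most amplicons, limma called both, CD150 at -0.0564 and CD48 at 0.0566 (adjusted p = 0.0148 each). limma called CD48 also with the UMIs of the other tags as covariate (0.0675, adjusted p = 0.0159) and with no minimum of tag UMIs (0.0351, adjusted p = 0.0386).

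The same amplicons were read in all 16 libraries, of which 12 did not enter the choice of the sets. The median share of the 75 was 18.0%, 16.6% and 30.2% in main mouse 1, main mouse 2 and replicate mouse 2, 20.1% in the transplantation library, and 11.0% in mature myeloid cells from marrow and blood. It was 22.6% in mature immune cells from marrow and spleen, and 22.9% in lung myeloid cells. The library titled as lung endothelial cells, whose cell type label nevertheless reads immune cells, had 87.3%, while its median over all amplicons tested was 69.7%. There AMPL371668 was read in 99.7% of cells, AMPL366060 in 99.6%, AMPL355412 in 96.8%, AMPL388203 in 95.5% and AMPL371197 in 92.5%. The amplicons that followed CD48 were divided in that library. AMPL388788 and AMPL366009 were read in 8.50% and 4.79% of cells, where the other 15 libraries had 51.9 to 84.3% and 46.5 to 85.4%. AMPL366159, AMPL355546 and AMPL371265, which also followed CD48, were read there in 98.1%, 87.9% and 66.6% of cells. The median of the 40 was 51.5% in the endothelial library, 83.4% in the bone marrow and spleen library and 57.5 to 73.2% in the 12 bone marrow libraries. With 6362 cells in the endothelial library, a share near 50% has an exact 95% binomial half-width of 1.24 points. There was 1 library of each of these other cell types, so the differences have no replicate check.

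Old and young bone marrow overlapped in the level of the 75 amplicons. Their median share was 24.0% and 38.9% in the 2 old libraries, against 21.9% and 25.9% in the 2 young ones, and that of the 40 was 61.8% and 64.2% in old libraries and 63.1% and 71.9% in young ones. Over all amplicons tested the medians were 65.1% and 68.8% in old and 66.2% and 66.1% in young libraries. Old library 2 stood highest of all blood-cell libraries for the 75, with a median of 50356 reads per cell where the other 3 had 27421 to 29540. The part of read depth in this value was not tested.

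**Figure D5:**
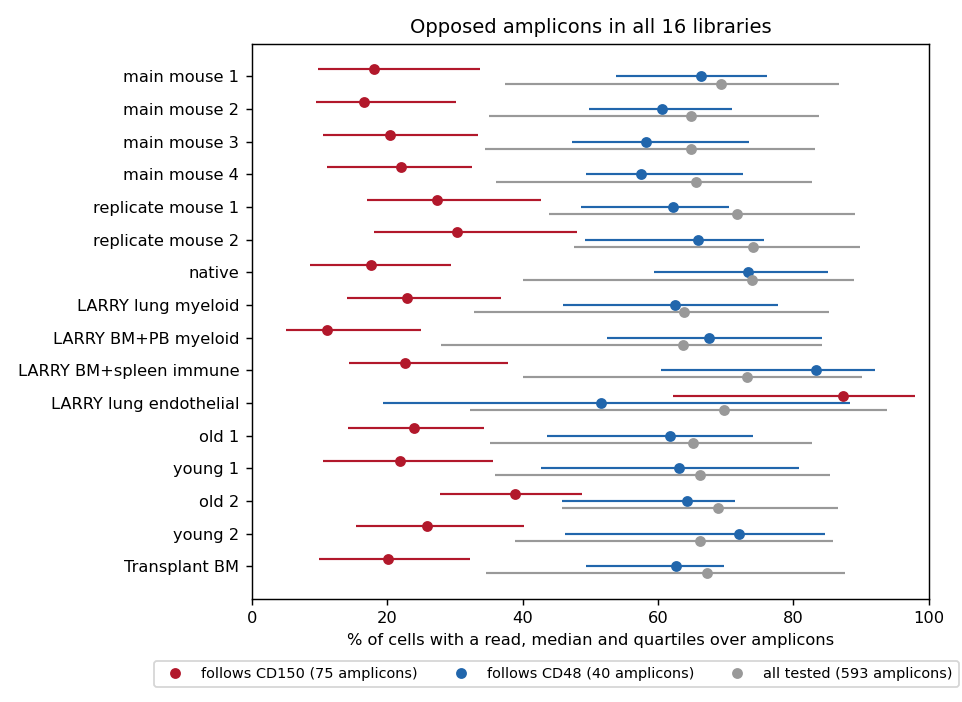
Share of cells with a read in each of the 16 libraries, as the median over amplicons (points) with quartiles (lines), for the 75 amplicons that follow CD150 (red), the 40 that follow CD48 (blue) and all 593 tested (grey). The 75 sit at medians of 11.0 to 38.9% in all libraries but the one titled lung endothelial cells, where they sit at 87.3%.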

How the data were processed

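The authors deposited, per the labels, raw read counts by amplicon for each cell and, per the file headers, UMI counts per cell and antibody tag. The submitters' processing notes name the build mm10; aligner, filters and cell caller are not given in the sources used. Amplicons carry panel identifiers that these files do not pair with genes or positions, so no sequence is shown. Gene positions came from RefSeq (GRCm38.p6).

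An amplicon with at least 1 read was called methylated. Amplicons with a mean share of 2 to 98% over the 4 libraries were tested. Within a library, calls and ranked tag counts were correlated given log10 reads and log10 total tag UMIs. limma 3.58.1 (R 4.3.3) tested the Fisher z values over libraries, with variances moderated over all pairs of amplicons and tags measured in at least 3 libraries, and Benjamini-Hochberg adjustment at 0.05. Difference and class tests also used limma, the classes with 0.5 cells added, and edgeR 4.0.16 on cell numbers as an alternative. Python 3.11.15 computed the rest. The procedure was tested on simulated data.

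Libraries, not cells, were the replicates. P-values measure the spread between these libraries, which may be in part technical. Doublets were not called. Named amplicons were those with the same sign in every library: the 5 largest opposed differences in each direction, and the 3 highest and 3 lowest called for each protein. Named tags were those on marker lists and the 3 most and 3 least like each protein. Other amplicons named at the edge of the call were chosen by their p-values. The members, lists and rules were chosen with earlier results of these data known. Constitutive amplicons were kept among those tested after a first count without them had been seen.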

Additional observations from a re-analysis of the deposited data

Results flagged for a closer look

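Among 36 values compared over the 4 libraries, 2 had a library far from the other 3, and chance alone sets about 1 in 20 such groups apart. AMPL366159 had a partial correlation with CD150 of -0.363 in replicate mouse 1, against -0.241, -0.261 and -0.247 in main mouse 3, main mouse 4 and the native library. CD48 made up a mean of 77.5% of tag UMIs in the native library, which has 4 tags, against 19.0 to 24.99% in the LARRY libraries, which have 19 or 20.

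c-Kit stood differently to both proteins in the native and the LARRY main libraries. With CD150, c-Kit had a partial rho of 0.0760 across cells of the native library, while both main mice were negative (-0.0482 at the lowest). Replicate mouse 1 was positive like the native library, at 0.0200. With CD48, c-Kit had -0.170 in the native library and was positive in all LARRY libraries, up to 0.252. CD48 and c-Kit together fill most of the tag total of the native library, where c-Kit had a mean of 15.0%. These differences were not tested.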

How the results depend on the processing

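Of the 25 pairs of a named amplicon and a protein, none turned direction, and 14 of 525 values under alternatives lost their limma call, 8 of them for AMPL355546 with CD48. Counts beyond 1.5 times the value reported were as follows. Leaving out 1 library gave 65 to 162 amplicons for CD150, 27 to 181 for CD48, 10 to 81 that followed CD150 and opposed CD48, 11 to 35 that did the reverse, 0 to 134 where the correlations differed and 64 to 123 between the classes, the lowest each time without main mouse 3 or, for the differing correlations, without main mouse 3 or 4. With no covariate for tag depth, 26 amplicons followed CD150 and opposed CD48. With no minimum of tag UMIs, 26 followed CD48 and opposed CD150 and limma called 18 differences. With Ter-119 and FceRIa ranks as covariates and without the native library, 18 followed CD48 and limma called 0 differences (186 at an unadjusted p below 0.05), and with each protein given the other 22 followed CD48. The cause was not tested. Leaving out constitutive amplicons, an alternative added after seeing the data, gave 75 and 40 as before. The mean rho between CD150 and CD48 was -0.0964 with the other tags' UMIs as covariate, 0.130 with no covariate for tag depth and -0.179 with no minimum. For the share of intermediate amplicons and CD150, rho was -0.0707 with centred log ratios, 0.0501 with no covariate for tag depth, 0.00204 with constitutive detection added and -0.0564 without the 5% of cells with the most amplicons. For CD48 it was 0.0351 with no minimum, 0.0675 with the other tags' UMIs as covariate, -0.0179 with centred log ratios, 0.120 with no covariate for tag depth and 0.0566 without the 5% of cells with the most amplicons. No paired analysis was possible because each test sets libraries against 0 and, in the 4 used, the groups share fewer than 2 replicate numbers. Pairing here means matching libraries by replicate number. The limma tests of the difference and of the classes compared values within each library. Old and young libraries do share replicate numbers, but they were described without a test. CD150 counts of 1 to 3 UMIs limit the ranking of most cells.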

Other observations

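Mature myeloid cells of LARRY bone marrow and peripheral blood, 1 library with other tags and no place in the comparisons, also had CD150 and CD48. In its 3902 cells with at least 100 tag UMIs, CD150 had a median of 16 UMIs (5th to 95th percentile 5 to 56) and CD48 a median of 7 (1 to 40). The 6 isotype control tags had medians of 2 to 4 UMIs. CD41 had a median of 15 and c-Kit one of 47. CD150 was thus above CD48 there, in contrast to the 4 libraries above, where CD48 medians were 38 to 145 UMIs and CD150 medians 1 to 3. The tag panels differ, so the levels are not comparable between these libraries, and no test was made.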
